A study of Mus musculus with 24 samples.

Results

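The circadian clock genes described here are *Per1*, *Per2*, *Per3*, *Dbp*, *Tef*, *Nr1d1*, *Nr1d2*, *Ciart*, *Npas2* and *Clock*, 10 of the 56691 genes in the deposited tables, chosen by gene symbol. Of all genes, 34471 had a count in at least 1 library, and 21694 reached 10 counts in 3 or more libraries. The 10 clock genes passed that filter in every comparison. Their levels were examined for differences between groups of mice in the apparent phase of the clock, since the sources used here give neither the hour at which tissue was collected nor the light cycle.

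RNA came from the distal jejunum of 24 mice, 1 library per mouse and 3 mice in each of 8 groups. The groups were male and female mice, wild type or *Ptk6*-/-, that drank regular water (control) or received 100 mM succinate in their water over 7 days. *Ptk6*-/- mice carry a germline knockout in every cell, on a C57BL/6 background, and the mice were 9 to 11 weeks old. The sources describe no separation of the layers or cell types of the gut, and fewer cells of a type and less RNA per cell cannot be told apart in these values.

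Most cells keep time with a loop of transcription factors. CLOCK or its relative NPAS2 pairs with ARNTL (BMAL1) and switches on the *Per* and *Cry* genes, *Ciart*, *Nr1d1*, *Nr1d2*, *Dbp* and *Tef*. PER, CRY and CIART proteins then repress that pair, while NR1D1 and NR1D2 (REV-ERB alpha and beta) repress *Arntl*, *Npas2*, *Clock* and *Nfil3*. DBP and TEF carry the rhythm to other genes through a site called the D-box. RNA of *Dbp*, *Nr1d1* and *Nr1d2* therefore peaks in most tissues at about the opposite time of day to RNA of *Arntl* and *Npas2*, and in the gut the clock is set largely by feeding.

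On the positions deposited by the authors, whose processing notes name the build GRCm39, *Dbp* (ENSMUSG00000059824) lies on chromosome 7 from 45354512 to 45359627 and *Tef* (ENSMUSG00000022389) on chromosome 15 from 81686622 to 81711064. *Nr1d1* (ENSMUSG00000020889) lies on chromosome 11 from 98658758 to 98666159, and *Nr1d2* (ENSMUSG00000021775) on chromosome 14 from 4230569 to 4265642. *Per1* (ENSMUSG00000020893) lies on chromosome 11 from 68986043 to 69000786, *Per2* (ENSMUSG00000055866) on chromosome 1 from 91343704 to 91387046, and *Per3* (ENSMUSG00000028957) on chromosome 4 from 151088109 to 151129122. *Ciart* (ENSMUSG00000038550) lies on chromosome 3 from 95785815 to 95789543, *Npas2* (ENSMUSG00000026077) on chromosome 1 from 39232812 to 39402317, and *Clock* (ENSMUSG00000029238) on chromosome 5 from 76357715 to 76452639. All 10 have protein-coding transcripts. Some of these genes share bases with others, and how the counting treated shared reads and strand is not given in the sources used here. The whole of *Per3* (41014 bases) lies inside *Camta1* on the same strand, which had 20 to 897 counts, against 4 to 333 for *Per3*. *Dbp* shares 737 bases with *Sphk2* on the opposite strand, which had 167 to 4675 counts, against 11 to 1307 for *Dbp*. *Npas2* and *Clock* each hold a pseudogene on their own strand with up to 175 and 301 counts. The whole of *Ciart* (3729 bases) lies inside *C920021L13Rik* on the opposite strand, which had 6 to 81 counts. The counts of these 5 genes are less certain for it.

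The promoters of these genes were searched for sites that the loop uses, and those below were chosen because each holds a site of 1 of its arms. Sequences are from RefSeq on the build GRCm38.p6, 250 bases before to 50 bases after a transcription start, read in the direction of the gene. Searched on both strands were the E-box CACGTG and its variant CACGTT, which CLOCK or NPAS2 with ARNTL binds, the D-boxes TTATGTAA and TTACGTAA, which DBP and TEF bind, and the ROR element (AAN followed by TAGGTCA), which NR1D1 and NR1D2 bind. None of these motifs contains another of them. The table held 13 promoters for 9 of the 10 clock genes. Capitals mark the sites found. *Ciart* (chr3:95882179-95882478, minus strand) has 3 E-boxes, whose first bases lie 116, 58 and 44 bases before the start. *Per1* (chr11:69098699-69098998, plus strand) has 1 E-box 166 bases before its first start. *Nr1d1* (chr11:98775328-98775627, minus strand) has the variant 28 bases before its start. *Per3* (chr4:151044616-151044915, minus strand) has 2 D-boxes, 205 and 158 bases before its start. *Arntl*, the partner gene, is added for its ROR element, 27 bases after its second start (chr7:113207261-113207560, plus strand).
Ciart: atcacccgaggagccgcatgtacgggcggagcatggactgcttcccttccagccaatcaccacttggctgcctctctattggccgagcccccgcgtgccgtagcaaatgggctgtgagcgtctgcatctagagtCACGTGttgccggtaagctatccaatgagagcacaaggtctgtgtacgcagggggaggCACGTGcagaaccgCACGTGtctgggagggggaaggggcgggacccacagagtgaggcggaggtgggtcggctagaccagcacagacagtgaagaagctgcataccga
Per1: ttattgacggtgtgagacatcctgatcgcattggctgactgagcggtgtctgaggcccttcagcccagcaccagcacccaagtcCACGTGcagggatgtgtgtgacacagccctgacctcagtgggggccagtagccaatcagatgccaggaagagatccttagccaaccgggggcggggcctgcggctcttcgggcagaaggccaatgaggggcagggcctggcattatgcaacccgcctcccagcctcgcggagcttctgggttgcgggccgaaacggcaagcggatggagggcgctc
Nr1d1: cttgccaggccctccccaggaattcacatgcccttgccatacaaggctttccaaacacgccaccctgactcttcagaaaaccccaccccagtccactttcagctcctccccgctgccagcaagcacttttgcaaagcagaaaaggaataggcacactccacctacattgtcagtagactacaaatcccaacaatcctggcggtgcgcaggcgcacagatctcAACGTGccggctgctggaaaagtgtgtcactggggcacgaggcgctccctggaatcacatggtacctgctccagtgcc
Per3: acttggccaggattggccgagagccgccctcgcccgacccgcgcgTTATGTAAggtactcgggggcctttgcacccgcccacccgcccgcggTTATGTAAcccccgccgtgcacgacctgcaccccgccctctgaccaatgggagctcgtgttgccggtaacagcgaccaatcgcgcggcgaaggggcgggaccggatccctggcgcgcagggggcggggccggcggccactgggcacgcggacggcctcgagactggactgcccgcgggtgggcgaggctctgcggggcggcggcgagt
Arntl: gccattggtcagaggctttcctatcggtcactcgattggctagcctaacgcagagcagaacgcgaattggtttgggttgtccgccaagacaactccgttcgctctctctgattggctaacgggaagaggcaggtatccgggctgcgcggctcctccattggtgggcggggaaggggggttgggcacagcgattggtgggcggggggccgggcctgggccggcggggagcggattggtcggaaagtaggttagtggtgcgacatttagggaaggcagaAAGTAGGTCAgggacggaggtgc

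The E-box CACGTG was found in 4 of the 13 promoters, which belong to *Per1*, *Tef* and *Ciart*, and in 7.15% of all 32851 promoters of that length in the table. CACGTT was found in 1 of the 13, that of *Nr1d1*, against 4.68% of all promoters. TTATGTAA was found in 1 of the 13, that of *Per3*, against 0.938% of all promoters. Neither TTACGTAA (0.119% of all promoters) nor the ROR element (0.219%) was found in any of the 13. The promoters of *Dbp*, *Nr1d2*, *Npas2* and *Clock* held none of the motifs searched. These windows are short, and a match is a description of the letters only.

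Libraries differed in depth and makeup. Total counts lay between 8080321 and 52824743 (median 43017686.5). *Ptk6* had 7 to 61 counts in the *Ptk6*-/- libraries and 284 to 2405 in the wild type libraries. Replicate 1 of the male wild type controls gave 51.2% of its counts to 18S ribosomal RNA, replicate 1 of the male *Ptk6*-/- succinate mice 29.7%, and the other 22 libraries at most 4.49%. The library labelled female wild type succinate replicate 2 had 74.3 CPM of 4 Y-linked genes, against 0 to 0.971 CPM in the other 11 female and 33.5 to 90.2 CPM in the male libraries, and 17100 CPM of 6 heart markers, against 13.2 to 208 CPM in the rest. The main differences, counts of mice and correlations of the 10 clock genes that include any of those 3 libraries are also given without them. Levels, spreads and the lists of most alike genes are given with every library only. Of the marker lists, the 7 smooth muscle markers and the 8 absorptive enterocyte markers of the labelled tissue were present in every library by their sum (1770 to 7730 CPM and 11600 to 48000 CPM). CPM, a gene's share of its library's counts, is scaled here by TMM factors.

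Per length of gene, on the FPKM values deposited by the authors, *Nr1d1* (7.94 ± 5.68 FPKM, SD, n = 24) and *Npas2* (7.26 ± 3.76) had the highest mean levels of the 10. *Npas2* was the higher of them in males (8.51 against 4.79 FPKM) and *Nr1d1* in females (11.1 against 6.01 FPKM). *Ciart* (0.147 ± 0.0952) and *Per3* (0.232 ± 0.116) had the lowest. The other 6 genes had means of 1.17 to 1.97 FPKM. *Ciart* had 0 counts in 1 library and at most 46 in any, so its differences are poorly measured, while *Npas2* and *Clock* had at least 119 and 81 counts in every library. In replicate 1 of the male *Ptk6*-/- succinate mice *Dbp* had 11 counts and *Per3* 4.

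*Dbp*, the output factor with the widest swing in most clocks, varied most of the 9 genes with a count in every library. Over the 24 mice its highest CPM was 40.1 times its lowest, against 15.8 for *Nr1d2*, 12.3 for *Nr1d1*, 8.44 for *Per1*, 7.31 for *Per2*, 7.24 for *Tef*, 6.7 for *Per3*, 5.09 for *Npas2* and 2.16 for *Clock*. The highest value of *Nr1d2* and the lowest of *Per3* are from libraries that stand apart. Mice of 1 group differed from each other too. The pooled standard deviation within groups, in log2 CPM, was 0.907 for *Dbp*, which is above that of 83.5% of the 15507 genes with a mean of at least 1 CPM. It was 0.791 for *Per1* (above 79.9%), 0.743 for *Nr1d2* (77.6%), 0.728 for *Per2* (76.6%) and 0.654 for *Nr1d1* (71.7%). *Clock*, which has a flat rhythm in many tissues, was at 0.278 (11.2%), and the median gene at 0.481. *Ciart* ran from 0 to 1.46 CPM, which gives no ratio, and was under the CPM minimum for the ranking by standard deviation.

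**Figure D1:**
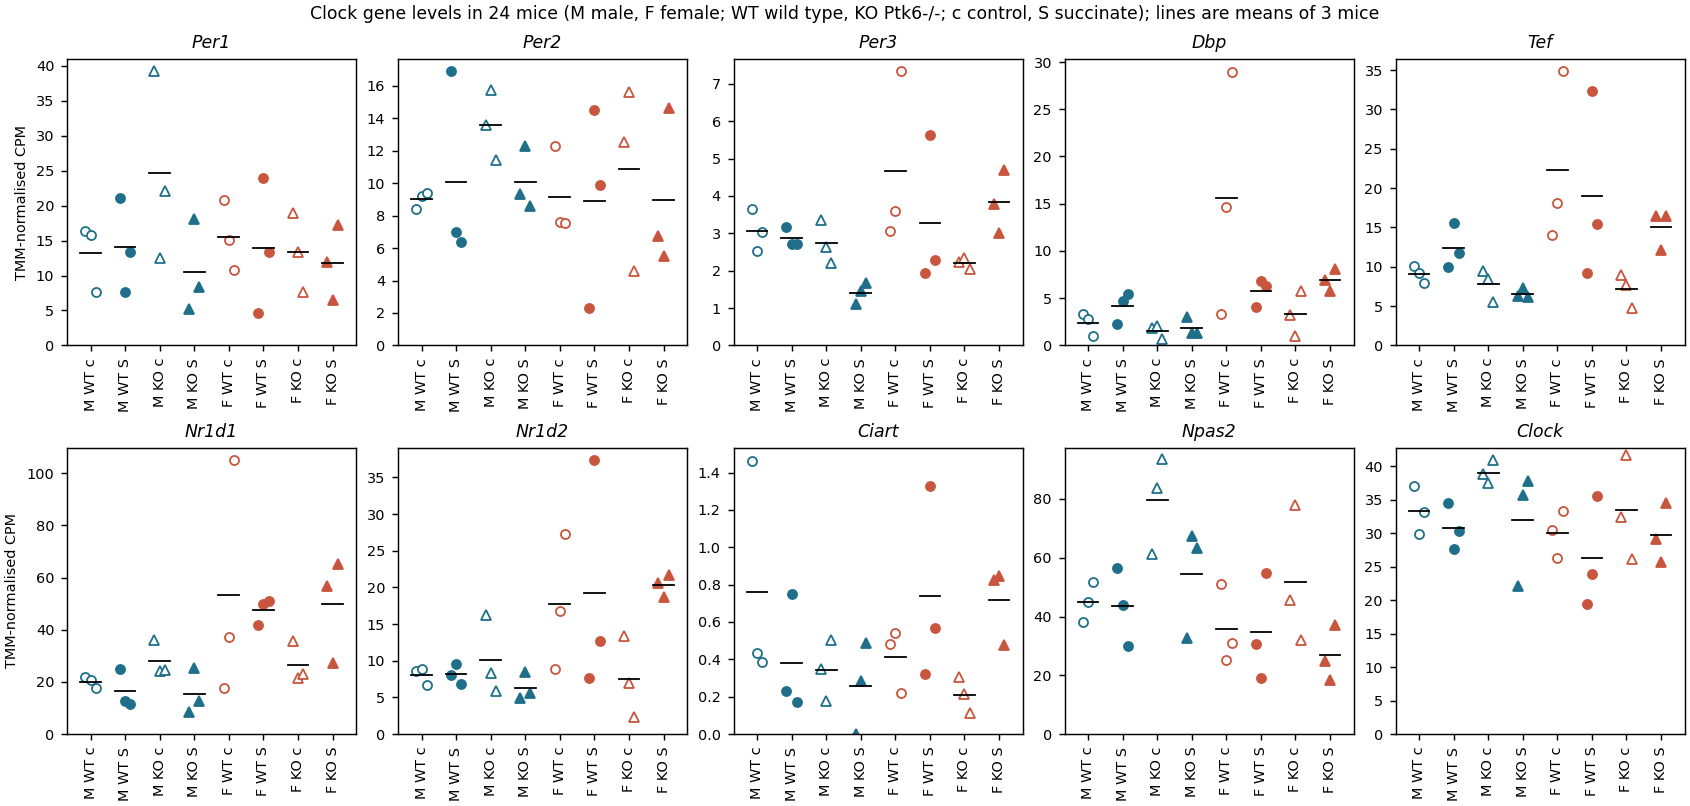
TMM-normalised CPM of the 10 clock genes (vertical axes, linear from 0) in each mouse, by group (horizontal axis), with a line at each group's mean of 3 mice. Blue marks males and red females, circles wild type and triangles Ptk6-/-, open symbols controls and filled symbols succinate. Dbp, Nr1d1 and Tef reach their highest levels in 1 female wild type control (28.9, 105.0 and 34.9 CPM).

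The output factor *Dbp* had 3.28, 14.7 and 28.9 CPM in the 3 female wild type controls, 4.07, 6.81 and 6.31 CPM in the female wild type succinate mice, 3.19, 1.04 and 5.74 CPM in the female *Ptk6*-/- controls, and 6.90, 5.76 and 8.07 CPM in the female *Ptk6*-/- succinate mice. In males it had 3.32, 2.76 and 1.01 CPM in wild type controls, 2.32, 4.75 and 5.45 CPM in wild type succinate mice, 1.83, 2.11 and 0.719 CPM in *Ptk6*-/- controls, and 3.02, 1.34 and 1.35 CPM in *Ptk6*-/- succinate mice. The order of the group means ran from 15.6 ± 12.8 CPM (SD, n = 3) in female wild type controls to 1.55 ± 0.736 CPM (SD, n = 3) in male *Ptk6*-/- controls, and each group overlapped with the next in that order. Of the 12 females, 8 were above every male, and 11 were above the male median of 2.21 CPM. Without the 3 libraries that stand apart 7 of 11 females were above every male.

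*Tef*, the related output factor, had its highest mean in the same group (22.3 ± 11.1 CPM, SD, n = 3, in female wild type controls, with 14, 18.1 and 34.9 CPM) and its lowest in male *Ptk6*-/- succinate mice (6.61 ± 0.666 CPM, SD, n = 3, with 6.31, 7.37 and 6.14 CPM). Female *Ptk6*-/- controls, at 9.02, 7.64 and 4.82 CPM, lay low, 1 of them below every male. Here too each group overlapped with its neighbour in the order of means.

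The repressor *Nr1d1* had 17.6, 37.1 and 105.0 CPM in female wild type controls, 41.7, 50 and 50.9 CPM in female wild type succinate mice, and 56.6, 27.2 and 65.4 CPM in female *Ptk6*-/- succinate mice. It had 35.5, 21.5 and 22.9 CPM in female *Ptk6*-/- controls. The 12 males lay between 8.5 and 35.9 CPM, with a median of 21.3 CPM. In the order of means, female wild type succinate mice (47.5 ± 5.06 CPM, SD, n = 3) did not overlap with the next group, male *Ptk6*-/- controls (28.2 ± 6.67 CPM, SD, n = 3), and all other neighbours overlapped.

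Its relative *Nr1d2* was at 20.6, 18.7 and 21.7 CPM in female *Ptk6*-/- succinate mice, a spread of 1.16-fold, and at 7.61, 37.3 and 12.7 CPM in female wild type succinate mice, where the highest value is from the library labelled replicate 2. The males lay between 4.94 and 16.3 CPM. All neighbours in the order of its means overlapped.

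Among the *Per* genes, repressors of the loop, *Per1* and *Per2* were highest in another group than *Dbp* and *Tef*, while *Per3* had the same highest and lowest groups as *Tef*. *Per1*, which also responds quickly to stress hormones and feeding, had its highest mean in male *Ptk6*-/- controls (24.6 ± 13.6 CPM, SD, n = 3), with 39.2, 12.5 and 22.1 CPM. *Per2* had its highest mean there too (13.6 ± 2.13 CPM, SD, n = 3, with 13.6, 15.7 and 11.4 CPM) and its lowest single value, 2.31 CPM, in a female wild type succinate mouse. *Per3* was highest in female wild type controls (4.67 ± 2.33 CPM, SD, n = 3) and lowest in male *Ptk6*-/- succinate mice (1.40 ± 0.286 CPM, SD, n = 3), which lay below every mouse of the next group. *Ciart*, the repressor with 3 E-boxes above, lay between 0 and 1.46 CPM, with all neighbouring groups overlapping.

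The activators *Npas2* and *Clock* also had their highest means in male *Ptk6*-/- controls. *Npas2* had 61.3, 83.6 and 93.7 CPM in male *Ptk6*-/- controls, the highest group mean (79.6 ± 16.6 CPM, SD, n = 3), and 24.7, 18.4 and 37.2 CPM in female *Ptk6*-/- succinate mice, the lowest (26.8 ± 9.54 CPM, SD, n = 3). Its neighbours in that order all overlapped. *Clock* spanned only 26.3 to 39.1 CPM between the lowest and highest group means, female wild type succinate mice and male *Ptk6*-/- controls. Male *Ptk6*-/- controls, at 38.9, 37.5 and 40.9 CPM, did not overlap with male wild type controls, the next group.

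Whether any group stood apart was tested first, over all 8 groups in 1 fit by edgeR's quasi-likelihood test, with a Benjamini-Hochberg adjusted p under 0.05 and a gap of at least 1 on the log2 scale between the highest and lowest group. By that rule 2.54% of the 21694 genes were called, and 2 of the 10 clock genes, *Dbp* and *Tef*, the pair of output factors. *Dbp* had a gap of 3.32 (edgeR adjusted p = 0.0253) and *Tef* of 1.75 (edgeR adjusted p = 0.0328). *Nr1d1* had a gap of 1.75 (edgeR adjusted p = 0.104), and the gaps of the other 7 lay between 0.57 and 1.78 with larger adjusted p. The median gap of the 10 was 1.67, against 1.18 over all genes tested, and 6 of the 10 had an unadjusted p under 0.05, against 15.3% of genes. Both calls depend on single mice. Without female wild type control replicate 3 the gap of *Dbp* was 2.53 (edgeR adjusted p = 0.15) and that of *Tef* 1.52 (edgeR adjusted p = 0.0787), and without the 3 libraries that stand apart neither was called, with gaps of 3.56 and 1.74 (edgeR adjusted p = 0.0748 and 0.0797). No clock gene was called either without male *Ptk6*-/- control replicate 3, without male *Ptk6*-/- succinate replicate 2 or without female wild type control replicate 2.

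The sexes were compared over the 24 libraries, 12 a side, with genotype and treatment as further terms. By the rule above 0.134% of genes were called, and 0 of the 10 clock genes. Unadjusted p was under 0.05 for 6 of the 10, against 14.6% of genes. Of these 6, the 5 with lower values in males were *Dbp*, *Nr1d1*, *Nr1d2*, *Tef* and *Per3*, targets of the activators, and the 1 with a higher value was *Npas2*, an activator.

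*Dbp* averaged 2.5 CPM in males (lowest 0.719, median 2.21, highest 5.45) and 7.89 CPM in females (lowest 1.04, median 6.03, highest 28.9). Its log2 difference, male minus female, was -1.69 (standard error 0.37, edgeR adjusted p = 0.0633). *Nr1d1* averaged 20.0 CPM in males and 44.3 in females (lowest 17.6, median 39.4, highest 105.0), a log2 difference of -1.15 (standard error 0.27, edgeR adjusted p = 0.0844). Values of both sexes overlapped for each of these genes.

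The log2 differences were -0.93 for *Nr1d2* (standard error 0.31), -0.77 for *Tef* (standard error 0.21), -0.49 for *Per3* (standard error 0.22) and 0.56 for *Npas2* (standard error 0.21), with edgeR adjusted p of 0.136 to 0.312. *Per1* (0.17), *Per2* (0.17), *Clock* (0.18) and *Ciart* (-0.17) had small differences. DESeq2 called *Dbp* (log2 difference -1.65, adjusted p = 0.00178) and *Nr1d1* (-1.13, adjusted p = 0.0069) among 1.02% of genes, and edgeR called *Dbp* when no filter on low counts was used, among 0.11% of genes. Without the 3 libraries that stand apart the differences were -1.84 for *Dbp* and -1.08 for *Nr1d1* (edgeR adjusted p = 0.0661 and 0.132), and -0.68 for *Tef*, -0.76 for *Nr1d2*, -0.40 for *Per3* and 0.60 for *Npas2*. *Per3* then had an unadjusted p of 0.0822 by edgeR, which left 5 of the 10 under 0.05, against 17.9% of genes in that fit. Leaving out single libraries, *Dbp* lay between -1.78 and -1.37 (edgeR adjusted p from 0.0244 to 0.122), and was called without any of female wild type control replicate 1, the 3 female wild type succinate mice or female *Ptk6*-/- control replicate 2.

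**Figure D2:**
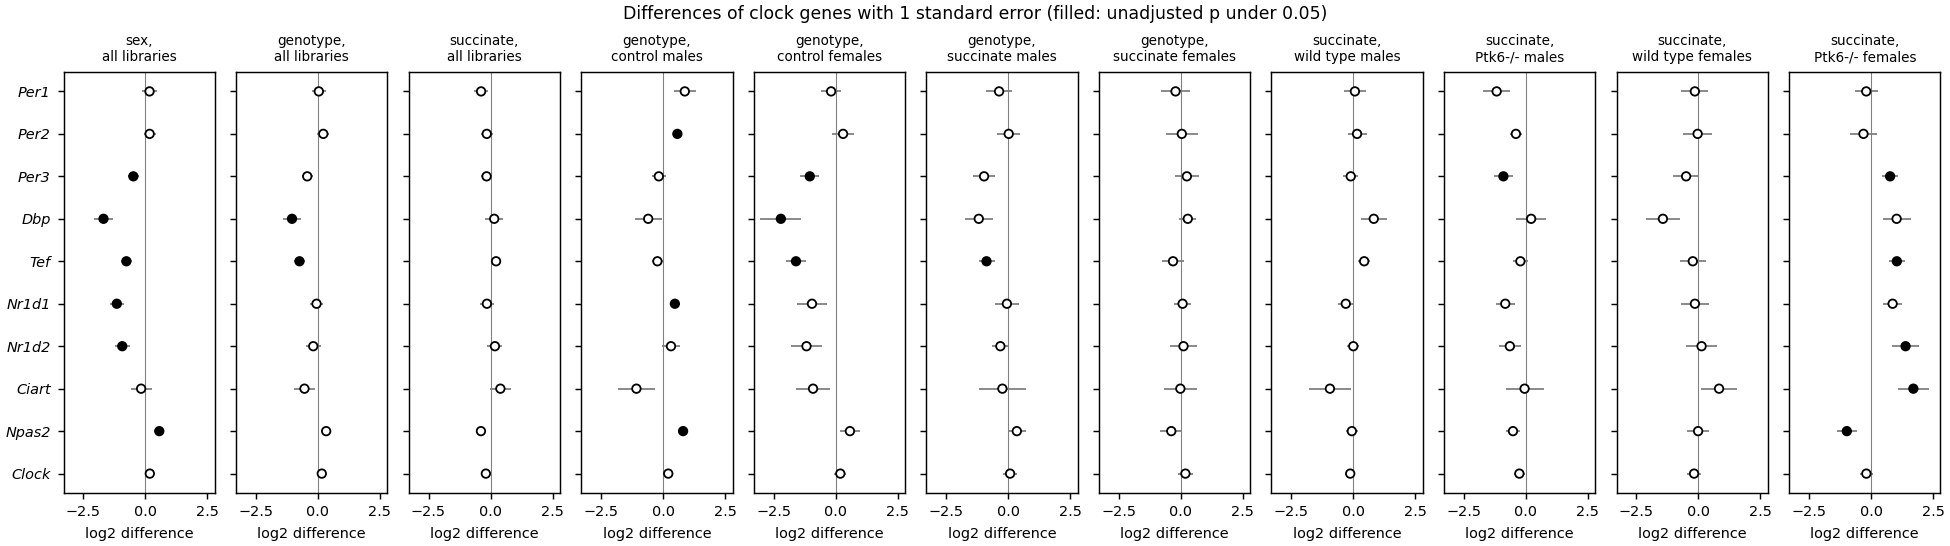
Log2 differences (points) with 1 standard error (bars) of the 10 clock genes from edgeR, 1 panel per comparison: males minus females, Ptk6-/- minus wild type, succinate minus control. Filled points have an unadjusted p under 0.05. In the comparison of the sexes Dbp (-1.69) and Nr1d1 (-1.15) lie farthest below 0 and Npas2 (0.56) above it.

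Other genes of the loop, from a list of 20, were compared in the same way. None of the 20 was called between the sexes by edgeR. At an unadjusted p under 0.05, 3 of them were higher and 2 lower in males, against 14.6% of genes in either direction. The 2 lower ones were *Arntl2* (-0.93), a relative of *Arntl*, and *Rora* (-0.40), an activator at ROR elements, while *Cry1* and *Arntl* were among the higher ones. *Cry1*, a repressor, had 24.7 CPM in males and 14.4 in females (log2 difference 0.78, standard error 0.21, edgeR adjusted p = 0.133), and 6 of the 12 females lay below every male, or 7 of 11 without the 3 libraries that stand apart. *Arntl*, the partner of CLOCK and NPAS2, had 51.6 CPM in males and 32.6 in females (log2 difference 0.67, standard error 0.25, edgeR adjusted p = 0.232). *Cry2* (0.31) and *Nfil3* (0.36) had an unadjusted p above 0.05. The median log2 difference was -0.33 over the 10 clock genes, 0.03 over the 20 and -0.03 over all genes tested.

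Smooth muscle markers moved with this comparison. All 7 had lower values in males, 6 at an unadjusted p under 0.05, with a median log2 difference of -0.72 and 0 called. Their summed level was 1770 to 6440 CPM in males (median 2720) and 2110 to 7730 CPM in females (median 4050). Across the 24 libraries, which share depth and dissection, it correlated with *Dbp* at r = 0.554 and with *Npas2* at r = -0.68 in log2 CPM. Within groups, as deviations from group means, those values were 0.27 and -0.533, and for *Nr1d1* r was 0.217 over the libraries and -0.406 within groups. Lung markers, which should be absent from gut, summed to 0 to 0.341 CPM in males and 0 to 16.5 CPM in females. All 4 had an unadjusted p under 0.05 and 2 were called, *Scgb1a1* (-7.57) and *Sftpa1* (-5.16, edgeR adjusted p = 0.0067 for both), in the comparison in which no clock gene was called. Within each library log2 CPM was regressed on log2 gene length, and the slope, which can differ with RNA quality, ran from 0.113 to 0.52, with medians of 0.343 in males and 0.306 in females, and correlated with *Npas2* at r = 0.712, with *Clock* at 0.794, with *Arntl* at 0.789 and with *Dbp* at -0.503. With an offset for the slope, the log2 differences between the sexes were -1.60 for *Dbp* and -1.08 for *Nr1d1* (edgeR adjusted p = 0.0867 and 0.0962). *Tef* was then at -0.81, *Nr1d2* at -0.94, *Per3* at -0.59 and *Npas2* at 0.57, and no clock gene was called. The part of muscle or lung in the difference between the sexes was not tested.

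A phase is read from genes that move against each other. In these libraries *Nr1d1* and *Arntl* did so only weakly (r = -0.175), and within groups not at all (0.236). *Arntl* also correlated with the summed smooth muscle markers at r = -0.742. Whether the values below read phase was not tested. The difference in log2 CPM between *Nr1d1* and *Arntl* was -2.37 to -0.71 in the 12 males (mean -1.35 ± 0.458, SD) and -1.64 to 2.22 in the 12 females (mean 0.455 ± 1.2, SD). Of the females, 10 lay above every male, and without the 3 libraries that stand apart 9 of 11. The remaining 2 were replicate 1 of the wild type controls (-1.41) and replicate 2 of the *Ptk6*-/- controls (-1.64). The male groups had like means, from -1.53 ± 0.802 (SD, n = 3) in *Ptk6*-/- succinate mice to -1.26 ± 0.485 (SD, n = 3) in *Ptk6*-/- controls. Female groups differed more among themselves. Their means were 0.548 ± 1.83 (SD, n = 3) in wild type controls, 1.09 ± 0.959 (SD, n = 3) in wild type succinate mice, -0.689 ± 0.891 (SD, n = 3) in *Ptk6*-/- controls and 0.865 ± 0.096 (SD, n = 3) in *Ptk6*-/- succinate mice. This value compares mice, not the levels of the 2 genes, since CPM is not per length, and as it was looked at after the genes' values were known it carries no test. For *Dbp* minus *Npas2*, a pair more opposed here (r = -0.752), males lay at -6.94 to -2.45 (mean -4.59 ± 1.3, SD). Females lay at -6.16 to -0.101 (mean -2.54 ± 1.62, SD), also without a test.

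A broader value, the mean log2 CPM of *Per1*, *Per2*, *Per3*, *Dbp*, *Tef*, *Nr1d1*, *Nr1d2* and *Ciart* minus the mean of *Npas2* and *Clock*, was -3.76 to -2.45 in males (mean -3.09 ± 0.452, SD) and -3.67 to -0.669 in females (mean -2.15 ± 0.831, SD). By this value 6 of the 12 females lay above every male, and 9 of 11 without the 3 libraries that stand apart. The 6 were all 3 *Ptk6*-/- succinate mice (-1.61, -1.73 and -1.81), 2 wild type controls (-1.53 and -1.41) and the library labelled replicate 2 of the wild type succinate mice (-0.669). The count of 9 arose because the highest male, at -2.45, was among the libraries left out. The highest of the other 10 males was at -2.623, and females at -2.61, -2.596, -2.534 and -2.525 lay just above it. Female *Ptk6*-/- controls, at -2.60, -3.67 and -3.09, lay within the range of the 12 males, though the first lay above those 10. *Per2*, which this value sets against *Npas2* and *Clock*, went with them over the libraries (r = 0.527 and 0.654). No hour of collection was available to set beside these values.

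**Figure D3:**
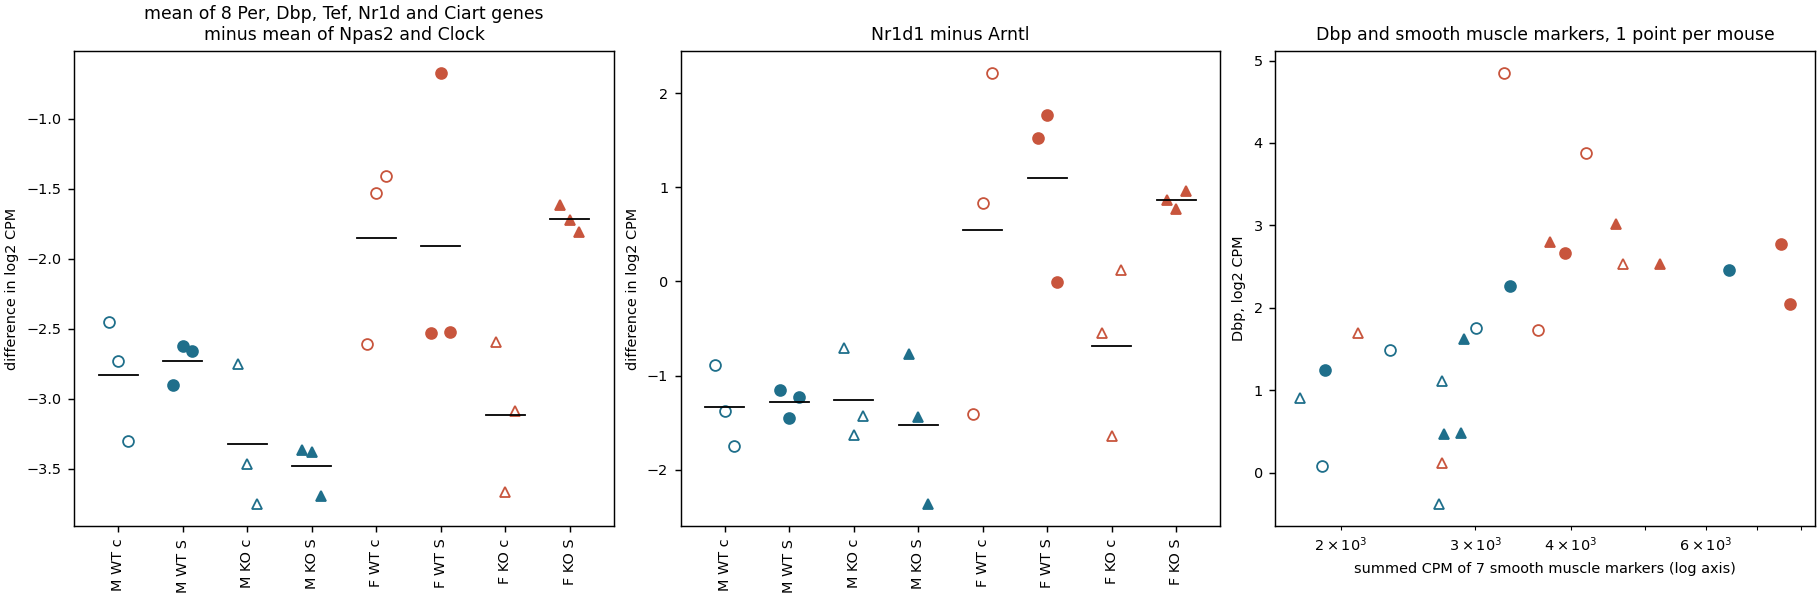
Left and middle, differences in log2 CPM (vertical axes) per mouse and group, with a line at each group's mean: the 8 Per, Dbp, Tef, Nr1d and Ciart genes minus Npas2 and Clock, and Nr1d1 minus Arntl. Right, Dbp in log2 CPM against the summed CPM of 7 smooth muscle markers (log axis). Blue marks males and red females, circles wild type and triangles Ptk6-/-, open symbols controls and filled symbols succinate. For Nr1d1 minus Arntl, 10 of 12 females lie above every male, and on the right r is 0.554.

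**Figure D4:**
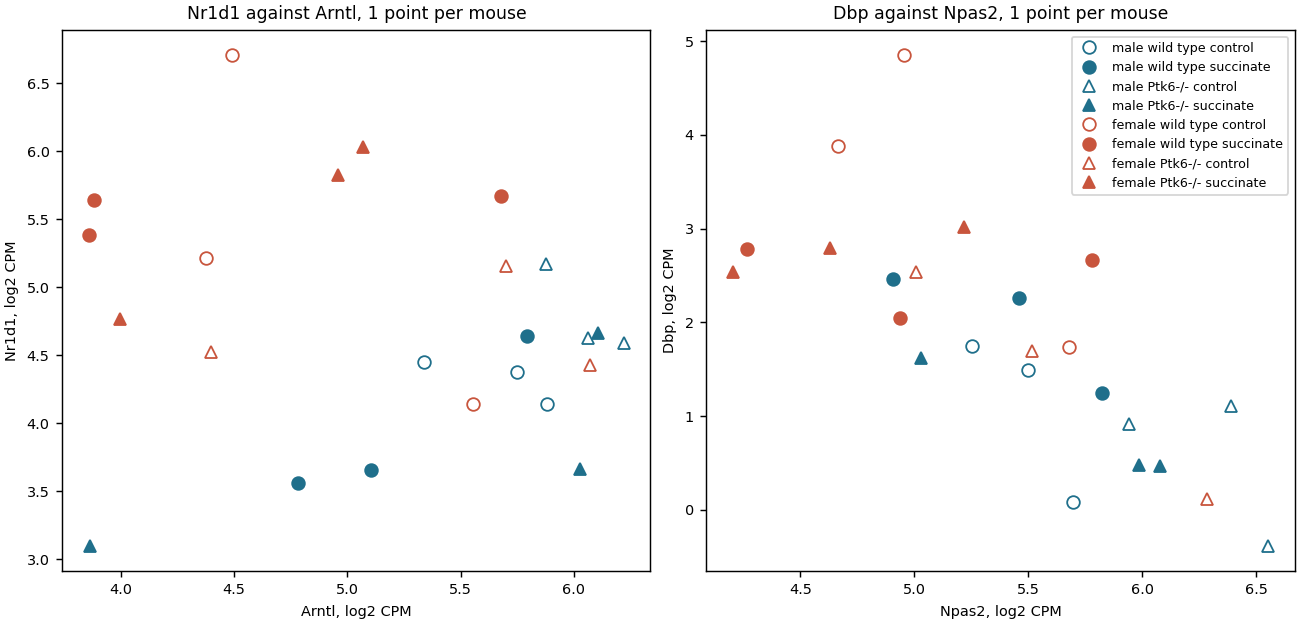
Log2 CPM of Nr1d1 against Arntl (left) and of Dbp against Npas2 (right), 1 point per mouse in 8 groups. Dbp and Npas2 run opposite (r = -0.752), while for Nr1d1 and Arntl r is -0.175.

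The genotypes were compared within each sex and treatment and over all mice. Over the 24 libraries 0.0184% of genes were called and 0 of the 10 clock genes. Only *Tef* and *Dbp*, the output factors, had an unadjusted p under 0.05 (2 of 10, against 12.8% of genes), with log2 differences, *Ptk6*-/- minus wild type, of -0.74 and -1.05 (standard errors 0.21 and 0.36, edgeR adjusted p = 0.266 and 0.311). DESeq2 called none of the 10, and limma's voom method called *Dbp* (-1.08, adjusted p = 0.0394) among 5.5% of genes. Without the 3 libraries that stand apart edgeR gave -0.65 for *Tef* and -1.16 for *Dbp* (adjusted p = 0.153 and 0.15), again the only 2 of the 10 with an unadjusted p under 0.05, against 20.6% of genes. Smooth muscle markers also had lower values in *Ptk6*-/- mice, 5 of 7 and 3 of them at an unadjusted p under 0.05 (0 called, median log2 difference -0.46), with sums of 1770 to 5220 CPM against 1890 to 7730 CPM in wild type. All 5 neuron markers were lower, 1 at that p (median -0.36), and their sum correlated with *Dbp* at r = 0.631. At that p 2 of 6 heart markers were lower (median -2.32) and 1 of 4 lung markers higher (median 2.08), with 0 called. Their part in the values of *Dbp* and *Tef* was not tested.

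In control males 0.739% of genes were called and 0 of the 10 clock genes, with edgeR and with DESeq2. *Npas2* had 38.1, 45.1 and 51.8 CPM in wild type and 61.3, 83.6 and 93.7 CPM in *Ptk6*-/- males. Its log2 difference of 0.81 (standard error 0.17, edgeR adjusted p = 0.0409) passed the test but was under the 2-fold limit. *Per2* (0.58) and *Nr1d1* (0.48) also had an unadjusted p under 0.05, as did 25.2% of genes. The genotypes did not overlap for these 3 genes and *Clock* (0.21), all higher in *Ptk6*-/- males, and did not overlap for 31.4% of genes. Without replicate 1 of the wild type controls, the library high in ribosomal RNA, the difference of *Npas2* was 0.74 (edgeR adjusted p = 0.0558), and *Clock* (0.34) joined the genes with an unadjusted p under 0.05, which made 4 of the 10 against 25.8% of genes. Over the settings tried the adjusted p of *Npas2* ran from 0.00038 to 0.904. The slope with gene length was 0.23 to 0.323 in wild type and 0.447 to 0.52 in *Ptk6*-/- control males, and with an offset for it *Npas2* had a log2 difference of 0.72 (edgeR adjusted p = 0.0854).

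In control females 0.0158% of genes were called and 0 of the 10 clock genes, with 3 of 10 at an unadjusted p under 0.05, against 11.1% of genes. Those 3 had lower values in *Ptk6*-/- females. *Tef* had 14, 18.1 and 34.9 CPM in wild type and 9.02, 7.64 and 4.82 CPM in *Ptk6*-/- females, with no overlap, a log2 difference of -1.60 (standard error 0.41, edgeR adjusted p = 0.367). *Dbp* had -2.21 (standard error 0.83, edgeR adjusted p = 0.409) with groups that overlapped, and *Per3* -1.04 (standard error 0.39, edgeR adjusted p = 0.408) with groups that did not, as for 18.9% of genes. DESeq2 called *Tef* (-1.60, adjusted p = 0.0237), and so did limma's voom method (-1.53, adjusted p = 0.0232), among 1.36% and 10.4% of genes. The median log2 difference over the 10 was -0.93, against 0.04 over all genes tested. Markers of other tissues moved with this comparison. The 4 lung markers summed to 0 to 0.331 CPM in wild type and 10.4 to 16.5 CPM in *Ptk6*-/- females (3 at an unadjusted p under 0.05, *Scgb1a1* called). The 6 B cell follicle markers had higher values in *Ptk6*-/- females (4 at an unadjusted p under 0.05, 0 called, median log2 difference 2.48), with sums of 14.3 to 24.8 CPM in wild type and 27.3 to 65.6 CPM in *Ptk6*-/- females. Their part in the values of the clock genes was not tested.

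Under succinate 0 genes were called between the genotypes in either sex (0% of those tested) by edgeR, the clock genes among them. At an unadjusted p under 0.05 stood 1 of the 10 in males, *Tef* (-0.87), against 2.72% of genes, and 0 of the 10 in females, against 4.52%. DESeq2 called 67 genes in males and 27 in females, none of them a clock gene. In males *Per3* (-0.97) and *Tef* had lower values in all 3 *Ptk6*-/- mice than in any wild type mouse, as was true in 1 direction or the other for 8.66% of genes. The 6 B cell follicle markers summed to 92 to 123.0 CPM in wild type and 16 to 37.8 CPM in *Ptk6*-/- succinate males, all 6 lower at an unadjusted p under 0.05 (0 called, median log2 difference -2.13). Of 5 heart markers tested 2 were higher at that p (median 1.69), with sums of 15 to 78.7 CPM and 39.3 to 208.0 CPM. Their part in the values of the clock genes was not tested. Limma's voom method called *Dbp* in males (-1.19 by edgeR), among 9.52% of genes. Without replicate 1 of the male *Ptk6*-/- succinate mice *Dbp* (-1.65), *Tef* (-0.91) and *Per3* (-0.91) had an unadjusted p under 0.05 (edgeR adjusted p = 0.822 for each), against 4.82% of genes in that fit. In females, without the library labelled wild type succinate replicate 2, 1 of the 10 was under 0.05, *Nr1d2* (0.98, edgeR adjusted p = 1.0), against 2.08% of genes.

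Whether the effect of genotype differed between the sexes was tested over the 12 controls, and 0% of genes were called. *Tef* had the smallest p of the 10 (male minus female effect 1.37, edgeR unadjusted p = 0.0182, adjusted p = 0.999) and was the only 1 of them under 0.05, against 4.64% of genes. Without male wild type control replicate 1 that effect was 1.49. All 4 lung markers had an effect below 0, 1 at an unadjusted p under 0.05 (median -5.76). So had all 6 B cell follicle markers, 2 at that p (median -2.88), with 0 called. Their part in the value of *Tef* was not tested.

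Succinate was compared with control water in each sex and genotype. Over the 24 libraries 0.525% of genes were called and 0 of the 10 clock genes, and none of the 10 had an unadjusted p under 0.05, against 16% of genes. DESeq2 called none of the 10 either. The log2 differences, succinate minus control, lay between -0.39 for *Npas2* and 0.40 for *Ciart*. In wild type mice of each sex 0% of genes were called, and none of the 10 had an unadjusted p under 0.05, against 4.07% of genes in males and 7.77% in females. Succinate and control wild type mice overlapped for each of the 10 in both sexes, while 8.77% of genes did not overlap in males and 13.3% in females. None of the 10 had an unadjusted p under 0.05 either without the 3 libraries that stand apart over all mice, without control replicate 1 in wild type males or without the library labelled succinate replicate 2 in wild type females.

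In *Ptk6*-/- females 0.0879% of genes were called and 0 of the 10 clock genes. At an unadjusted p under 0.05 stood 5 of the 10, against 10.7% of genes. Of these, *Ciart* (log2 difference 1.71), *Nr1d2* (1.39), *Tef* (1.04) and *Per3* (0.77), all targets of the activators, had higher values after succinate, and *Npas2* (-0.97) lower ones, with edgeR adjusted p of 0.392 to 0.461. *Nr1d2* had 13.4, 6.90 and 2.37 CPM in controls and 20.6, 18.7 and 21.7 CPM after succinate, and *Tef* 9.02, 7.64 and 4.82 CPM against 16.5, 12.1 and 16.5 CPM. Controls and succinate mice did not overlap for those 4 genes and *Dbp* (1.03), as for 21.2% of genes. No alternative and no left-out library gave a call for any of the 10 here. Without replicate 2 of the succinate mice the adjusted p of *Ciart*, *Nr1d2* and *Npas2* was 0.928, 0.931 and 0.951. Lung markers summed to 10.4 to 16.5 CPM in these controls and 5.88 to 9.92 CPM after succinate, and smooth muscle markers to 2110 to 4680 CPM and 3750 to 5220 CPM. Their part in these values was not tested.

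In *Ptk6*-/- males 0% of genes were called, and DESeq2 called none of the 10. *Per3* alone of the 10 had an unadjusted p under 0.05, against 7.75% of genes. It had 3.37, 2.63 and 2.20 CPM in controls and 1.10, 1.45 and 1.66 CPM after succinate, a log2 difference of -0.91 (standard error 0.39, edgeR adjusted p = 0.6), with groups that did not overlap, as for 23% of genes. *Per1* had a larger difference (-1.18) with groups that overlapped. The lowest values of *Per1* and *Per3* were from replicate 1 of the succinate mice, the shallowest library. Without it *Per3* had -0.84 (edgeR adjusted p = 0.441) and *Per1* -0.93. Of the 10, 9 had a difference below 0, with a median of -0.46 against -0.10 over all genes tested. Heart markers summed to 13.2 to 32.1 CPM in controls and 39.3 to 208.0 CPM after succinate (4 of 5 higher at an unadjusted p under 0.05, 0 called), and their part in these values was not tested.

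The interactions of genotype and succinate called 0% of genes in males and in females, and DESeq2 called none of the 10. In females *Dbp* had 2.51 (edgeR unadjusted p = 0.0224, adjusted p = 0.752), the only 1 of the 10 under 0.05, against 6.46% of genes. In males none of the 10 was under 0.05, against 3.8% of genes. Without the libraries that stand apart 4 of the 10 were under 0.05 in females, *Per3* (1.9), *Tef* (1.89), *Dbp* (2.63) and *Nr1d2* (2.17), and 1 in males, *Per3* (-0.90), all with an edgeR adjusted p of 1.0. In those fits 4.19% of genes were under 0.05 in females and 3.93% in males. With every library, heart markers had an interaction below 0 in females (4 of 5 at an unadjusted p under 0.05, median -5.89), and so had lung markers (3 of 4, median -8.05), with 0 called. In wild type females their sums were 36.7 to 69.7 and 0 to 0.331 CPM in controls and 30.6 to 17100 and 0.0973 to 14.3 CPM after succinate, and in *Ptk6*-/- females heart markers had 15.6 to 41.1 CPM in controls and 28.2 to 56.9 CPM after succinate. Their part in the interaction of *Dbp* was not tested.

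Beyond the groups, some of the clock genes varied together from mouse to mouse. Over the 24 libraries, which share groups, depth and dissection, the 10 pairs among *Dbp*, *Tef*, *Nr1d1*, *Nr1d2* and *Per3* all correlated positively in log2 CPM, at r = 0.555 to 0.865 with a median of 0.693. The highest was *Tef* with *Nr1d2*. As deviations from the group means the same 10 pairs had r = 0.256 to 0.893. *Per1* and *Per2* went with each other (r = 0.707), and *Per2* over the libraries with *Clock* (0.654), *Arntl* (0.608) and *Npas2* (0.527) and not with *Dbp* (-0.355). Within groups *Per2* had r = 0.539 with *Nr1d2*, 0.493 with *Tef* and 0.441 with *Per3*, beside 0.431 with *Npas2*, and *Per1* had 0.558 with *Nr1d2*. With each library's trend in gene length removed, *Per1* with *Per2* was at 0.619 and *Per2* with *Arntl* and *Npas2* at 0.431 and 0.428, but *Per2* with *Clock* turned to -0.149. *Npas2* went with *Arntl* (0.896), *Cry1* (0.768) and *Clock* (0.76).

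*Dbp* was opposed to *Npas2* (r = -0.752) and to *Arntl* (-0.681) over the libraries, and within groups too (-0.618 and -0.539). With each library's trend in gene length removed these were -0.746 and -0.732. For *Nr1d1* the opposition was weaker, at -0.269 with *Npas2* and -0.175 with *Arntl*, and within groups its sign turned (0.121 and 0.236). Without the 3 libraries that stand apart *Dbp* had r = -0.774 with *Npas2* and -0.748 with *Arntl*, *Nr1d1* had -0.308 and -0.322, and the 10 pairs above 0.561 to 0.818 (21 libraries). The link of *Clock* with *Npas2* and *Arntl* fell to 0.179 and 0.281 once the length trend was removed.

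**Figure D5:**
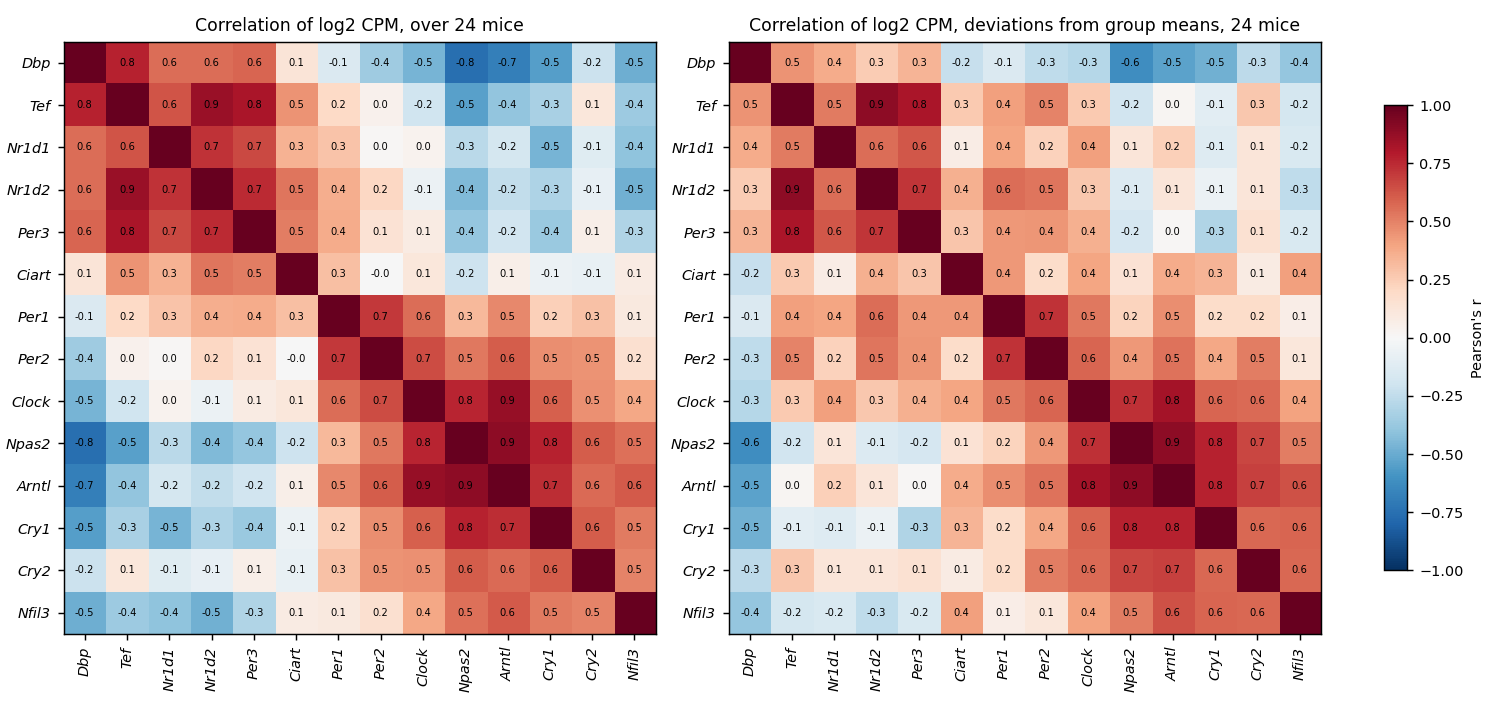
Pearson's r (colour and printed value) between log2 CPM of the 10 clock genes and Arntl, Cry1, Cry2 and Nfil3 over 24 mice (left) and between deviations from the group means (right). Dbp, Tef, Nr1d1, Nr1d2 and Per3 form 1 positive block (0.555 to 0.865 on the left), and Npas2, Arntl, Clock and Cry1 another.

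Among 15507 genes with a mean of at least 1 CPM, the 10 with the pattern most like that of *Dbp* over the 24 libraries were *Svip* (r = 0.82), *Tdrd3* (0.776), *Tef* (0.766), *Adh1*, *Rgs10*, *0610005C13Rik*, *H2az2*, *Eapp*, *Nsa2* and *Dusp12* (0.711). *Tef* was the only clock gene of them. The 10 most like *Npas2* were *Midn* (r = 0.96), *Arhgef5* (0.95), *Kif21b* (0.949), *Ksr1*, *Cdc42bpb*, *Chd3*, *Arhgap17*, *Aff1*, *Bnip5* and *Asap2* (0.93), with no clock gene among them. By deviations from group means *Svip* was again the first for *Dbp* (0.778), followed by *Snupn*, *Aatf*, *Ppp1ccb*, *Flt3l*, *4933407K13Rik*, *Ntn3*, *Gsta4*, *Bglap3* and *Map2k3os* (0.657). By that measure *Bnip5* (0.956), *Plekha7*, *Midn*, *Ell*, *Ptprh*, *Baiap2l1*, *Ksr1*, *Abr*, *Myo5b* and *Nploc4* (0.934) came first for *Npas2*. These lists are a description over libraries that also differ in tissue makeup and gene length trend.

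Genes of stress hormones, activity and feeding, which also follow the time of day, were counted beside them at an unadjusted p under 0.05. Between the sexes these were 1 of 8 glucocorticoid responsive genes, 1 of 10 immediate early genes and 1 of 8 fasting and feeding genes, against 14.6% of all genes, and 0 were called. In control females 4 of the 8 glucocorticoid responsive genes had lower values in *Ptk6*-/- mice and none higher, and of the 8 fasting and feeding genes 3 had lower and 1 higher values, against 11.1% of genes. Their medians were -0.63 and -0.81 on the log2 scale against 0.04 over all genes tested, and 0 were called. In control males the medians lay on the other side, at 0.51 and 0.15, and at 0.64 for the immediate early genes. There 3 of 8 glucocorticoid responsive genes had higher values in *Ptk6*-/- mice and 1 lower, as did 4 and 0 of the 10 immediate early genes and 1 and 1 of the 8 fasting and feeding genes, against 25.2% of genes. *Pdk4*, which is on both of those lists of 8, was the only gene of the 3 lists called there (1.3, edgeR adjusted p = 0.0384). In *Ptk6*-/- females after succinate the medians of the glucocorticoid responsive and the fasting and feeding genes were 0.24 and 0.06, with 1 of 8 and 2 of 8 at that p, against 10.7% of genes. In *Ptk6*-/- males after succinate 1 glucocorticoid responsive gene was higher and 2 lower (median -0.71), and 3 of the 10 immediate early genes were lower (median -0.57), against 7.75% of genes, and 0 were called. In controls the male minus female effect of genotype was above 0 at that p for 4 of the 8 glucocorticoid responsive genes (median 1.06 over the 8), against 4.64% of genes in either direction, and 0 were called.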

How the data were processed

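RNA of the distal jejunum was sequenced from 24 mice in the labels' 8 groups of 3. The authors trimmed reads of stranded poly(A) libraries with Cutadapt, mapped them with HISAT2 and estimated expression with StringTie and ballgown. The deposited count values are reads per gene without normalization, and the counting program is not given in the sources used here. The deposited FPKM values are fragments per kilobase of exon, scaled to the fragments mapped, as the authors computed them. The submitters' processing notes name the build GRCm39.

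The software was DESeq2 1.42.0, limma 3.58.1 and edgeR 4.0.16, run in R 4.3.3 on tables read by the package data.table (version 1.17.8). Totals per library were 8080321 to 52824743, and this number limits the precision of low genes. There were 15 comparisons (8 of 2 groups, 3 over all libraries, 3 interactions and 1 over the 8 groups). Genes that reached 10 counts in 3 or more of the libraries compared were tested after TMM by edgeR's quasi-likelihood method and adjusted together. A call needed an adjusted p under 0.05 and a 2-fold difference. The study's methods name DESeq2, which was an alternative beside others given in the closing section. For levels and correlations, TMM factors were taken over the 24 libraries, with a prior count of 2 on the log2 scale. Correlations are descriptions and carry no p. In simulated data a gene counted as recovered at an adjusted p under 0.05 alone, without the 2-fold limit of a call. For control males the test so recovered 45.8% of genes changed 2-fold and 85.3% of those changed 4-fold, among 18731 genes. For the sexes it recovered 46.5% and 82% among 21203 genes. The main comparisons kept every library. The mice are from different litters, and replicate numbers in the labels name mice only.

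The 10 clock genes, the gene lists (20 other clock genes, glucocorticoid responsive, immediate early, fasting and feeding genes, and markers of smooth muscle, enterocytes, B cell follicles, heart, pancreas, neurons and lung) and the tests were chosen with earlier results of these data known. Genes named outside the 10 are *Arntl*, *Cry1*, *Cry2*, *Nfil3*, any other clock gene called (there was none) and the 10 genes most like *Dbp* and *Npas2*. *Arntl2*, *Rora*, *Pdk4*, *Scgb1a1* and *Sftpa1* fall outside that rule and were named after their values were seen, and genes that share bases with the 10 are named for their positions. Promoters were matched by symbol to RefSeq on GRCm38.p6 (9 of 10 genes), whose coordinates are not those of the deposited tables.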

Additional observations from a re-analysis of the deposited data

Results flagged for a closer look

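Of the clock genes, only *Per3* had no overlap between succinate and control mice in both *Ptk6*-/- males and *Ptk6*-/- females. Its succinate differences there were of opposite sign. Among all genes tested, 23% did not overlap in *Ptk6*-/- males and 21.2% in *Ptk6*-/- females. How many did so in both, with opposite sign, was not counted. The log2 difference of *Per3* was -0.906 in *Ptk6*-/- males and 0.771 in *Ptk6*-/- females (edgeR adjusted p = 0.6 and 0.461). The difference between the sexes was not tested. In males the lowest value is from the shallowest library, in which *Per3* had 4 counts, and without it the difference in males was -0.84 (edgeR adjusted p = 0.441).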

How the results depend on the processing

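The number of clock genes called by edgeR was 0 in 14 of the 15 comparisons and 2 over the 8 groups. Over the 8 groups it was 4 with DESeq2 (9.15% of all genes called), 6 with limma's voom method (30.4%), 1 with at least 10 counts in every library (2.2%) or with limma on log2(FPKM + 1) (1.24%), and 0 without the 3 libraries that stand apart. It was 2 between the sexes with DESeq2 and 1 with no filter on low counts. It was 1 in control males (*Npas2*) with no fold change limit, 1 in control females (*Tef*) with DESeq2 or voom, and 1 (*Dbp*) with voom for genotype in succinate males, for genotype over all libraries and for succinate in wild type males. Leaving out each library in turn, it ran from 0 to 2 between the sexes and from 0 to 2 over the 8 groups. The cause of these moves was not tested. The replicate numbers did not pair the mice: the correlation of same-numbered deviations ran from -0.481 to 0.311, and over the 8 comparisons of 2 groups a library correlated best with its own number in 5 of 48 cases. With the replicate block 0 clock genes were called over the 8 groups, and 1 (*Tef*) with the block and the length offset together. Of the values of clock genes with an unadjusted p under 0.05 in the edgeR fit, 674 kept their side of the threshold, 20 gained a call and 26 lost one. Direction was followed for 23 of these differences, without the gaps over the 8 groups, which have no sign. Of their 518 values 0 turned. Of the 117 differences of clock genes with a larger p, 61 turned sign under at least 1 setting. The group means of the broader clock value ran from -3.48 to -1.72 on log2 CPM, and all 8 moved on log2(FPKM + 1), a per-length scale, to between -1.56 and -0.472. The counts of females above or below every male and the correlations without the 3 libraries that stand apart were chosen after seeing the data. Depth limits *Ciart* most.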
